A study of Mus musculus with 48 samples.

Results

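H3K27ac, the histone acetylation that marks active promoters and enhancers, was examined at 430 autosomal regions that carried more of it in cardiac macrophages and monocytes of mice sham operated at postnatal day 1 (P1) than of mice sham operated at postnatal day 10 (P10), and these regions were then followed in the infarcted hearts of both ages. To choose them, the autosomes were cut into 500 bp windows, windows at 4 or more times the mean level of covered windows were kept, and windows starting within 1000 bp of each other were merged into 26220 regions. Of these, 12893 held at least 60 read pairs over the 21 sham libraries, and 430 of them had a summed P1 sham level at least 1.8 times that of P10 sham. The sham values thus chose the regions and are given below as a description only, whereas the 21 libraries from infarcted hearts had no part in the ratio. Levels are in CPM. The summed sham levels are the read pairs in a region per 1000000 read pairs in all autosomal regions. Levels of single libraries are per 1000000 read pairs in the 12258 regions tested below, with the library total adjusted by the scaling factors of the fit.

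The mice were C57BL/6. Surgery was performed at P1 or P10 and was either myocardial infarction (MI), in which the left anterior descending artery is tied off, or sham, and hearts were collected 3 or 7 days later. Each heart was divided into 3 zones, the infarct (IZ), its border (BZ) and remote tissue (RZ), in sham hearts the matching parts, then CD45+F4/80+ cells were sorted and H3K27ac was profiled by CoBATCH, in which antibody-guided Tn5 transposase inserts sequencing adapters next to the mark in barcoded single cells. The cells of a library lie together in its file with no cell name, so the library was the unit here. There were 42 libraries in 24 groups of age, surgery, day and zone, namely 9 of P1 sham, 9 of P1 MI, 12 of P10 sham and 12 of P10 MI, and they came from 14 pools, a pool being the 3 zones that share age, surgery, day and number. Per the study's methods several hearts were combined for each zone, and P1 MI and P1 sham had 1 pool each at day 3, so that 6 of the 24 groups are single libraries. MI and sham were told apart by the sample titles, since the treatment label reads as infarction for all.

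Libraries held 48044 to 1008148 read pairs, of which 15148 to 513496 lay in regions, and the shallow ones carry the larger counting error. Defining markers of the sorted cells were present in all 42 libraries, with at least 320 CPM at Ptprc, which encodes CD45, 31.7 CPM at Adgre1, which encodes F4/80, and 267 CPM at Csf1r. One pool stood apart in its sex chromosome pairs. The 3 libraries of P1 MI day 7 number 1 held 2.88% to 3.35% of their pairs on X, against 1.69% to 2.98% in the others, and at most 0.00079% on Y, against 0.0024% to 0.071%, so the results that rest on them are also given without them. Among the others, Y shares were also low in P10 MI day 7 number 1 (0.0024% to 0.0035%). They were 0.0035% to 0.0052% in P10 MI day 3 number 2. No fit left out either of these P10 pools whole. The part of the sex of the animals in the differences was not tested. Because libraries are bulk sums here, fewer cells of a type and less acetylation per cell cannot be told apart in any value below.

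After birth the mouse heart loses much of its capacity to regenerate within about the first week, and both resident macrophages, seeded before birth, and monocyte-derived cells take part in its repair. Classical monocytes with high Ly6c and Ccr2 enter injured myocardium early, while Ly6c-low monocytes patrol vessels and depend on the nuclear receptor Nr4a1. H3K27ac at a distal element commonly goes with activity of a nearby gene, although the nearest gene need not be its target.

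Sequences from 6 of the regions are shown because they are among the regions described below for age, time or zone. The one upstream of Id2 stands for the zones, where none of the chosen regions passed the test. They are the central 300 bases of the strongest 500 bp window (GRCm38, RefSeq), and capitals mark matches to any of 12 motifs searched on both strands.
Fgr region, chr4:132976601-132976900, plus strand: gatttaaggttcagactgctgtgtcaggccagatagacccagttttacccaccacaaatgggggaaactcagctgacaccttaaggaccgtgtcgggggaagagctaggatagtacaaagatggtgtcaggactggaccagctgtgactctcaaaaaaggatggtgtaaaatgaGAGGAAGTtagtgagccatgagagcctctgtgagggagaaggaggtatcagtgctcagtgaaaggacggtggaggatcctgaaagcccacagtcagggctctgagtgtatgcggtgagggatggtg
Emilin2 region, chr17:71257101-71257400, plus strand: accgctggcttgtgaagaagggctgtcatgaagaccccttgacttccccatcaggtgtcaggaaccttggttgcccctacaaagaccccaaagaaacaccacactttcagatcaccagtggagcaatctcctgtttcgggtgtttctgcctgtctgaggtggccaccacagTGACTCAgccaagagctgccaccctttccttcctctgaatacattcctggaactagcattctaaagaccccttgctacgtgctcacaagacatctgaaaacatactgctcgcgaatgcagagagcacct
Dusp5 region, chr19:53479601-53479900, plus strand: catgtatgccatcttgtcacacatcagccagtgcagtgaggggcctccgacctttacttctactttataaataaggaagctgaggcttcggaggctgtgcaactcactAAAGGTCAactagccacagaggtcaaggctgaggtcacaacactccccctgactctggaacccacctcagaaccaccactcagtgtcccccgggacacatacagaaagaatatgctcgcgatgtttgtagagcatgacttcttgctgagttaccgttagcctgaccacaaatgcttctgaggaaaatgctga
Tmem51 region, chr4:142063601-142063900, plus strand: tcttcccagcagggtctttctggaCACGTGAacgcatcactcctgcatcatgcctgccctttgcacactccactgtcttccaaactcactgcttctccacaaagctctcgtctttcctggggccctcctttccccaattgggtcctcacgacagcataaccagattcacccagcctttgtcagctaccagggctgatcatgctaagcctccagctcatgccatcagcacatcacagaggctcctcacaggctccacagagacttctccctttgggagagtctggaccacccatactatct
Plac8 region, chr5:100614101-100614400, plus strand: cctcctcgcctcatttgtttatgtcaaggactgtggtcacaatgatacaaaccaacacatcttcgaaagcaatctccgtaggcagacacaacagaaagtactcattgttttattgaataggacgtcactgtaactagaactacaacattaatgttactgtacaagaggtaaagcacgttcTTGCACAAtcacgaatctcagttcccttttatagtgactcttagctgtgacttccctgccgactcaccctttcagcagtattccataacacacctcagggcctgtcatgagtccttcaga
Id2 region, chr12:25283601-25283900, plus strand: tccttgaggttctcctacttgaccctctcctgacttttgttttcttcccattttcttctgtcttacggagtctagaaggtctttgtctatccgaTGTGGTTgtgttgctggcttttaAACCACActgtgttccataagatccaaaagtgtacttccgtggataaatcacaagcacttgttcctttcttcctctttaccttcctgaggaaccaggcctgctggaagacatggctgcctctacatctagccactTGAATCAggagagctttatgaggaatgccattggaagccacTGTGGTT

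The capitals are an ETS/PU.1 match (GAGGAAGT) at Fgr, an AP-1 match (TGANTCA) at Emilin2, an NR4A match (AAAGGTCA) upstream of Dusp5, a MITF/TFE E-box (TCACGTG, read on the minus strand) in Tmem51 and a C/EBP match (TTGCNNAA) near Plac8. Far upstream of Id2 they are 3 RUNX matches (TGTGGTT) and 1 AP-1 match. In the strongest windows of all 430 regions, AP-1 letters were present in 20.9%, against 13.7% of the regions with at least 60 sham pairs. KLF/SP letters (GGGCGG) were present in 24.7% and 48.2%. These shares move with how many regions are promoters, so the 307 regions away from promoters were also read against the 5247 such regions with at least 60 sham pairs. There AP-1 stood at 23.1% and 21.8%, KLF/SP at 17.26% and 15.25%, NR4A at 5.54% (17 regions) and 3.26%, and MAF (TGCTGAC) at 7.82% and 12.1%. Away from promoters, ETS/PU.1 stood at 11.1% and 12.7%, RUNX at 14.01% and 13.1%, and C/EBP at 20.9% and 20.3%. These shares are a description with no test.

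The regions were mostly distal. Promoters, here regions within 1000 bp of the transcription start site of a protein-coding gene, made up 123 of 430 (28.6%), against 59.3% of the regions with at least 60 sham pairs. A further 157 were intragenic and 150 intergenic. Their median length was 3000 bp, the median GC content of the strongest window was 52%, and they had 382 different nearest genes on 19 chromosomes. Linking regions within 100 kb gave 359 loci, of which 303 held a single region and 12 held 3 or more. The largest loci held 4 regions each. One spans chr13:13523501-13570500 upstream of Lyst, a regulator of lysosomal trafficking. One spans chr19:53449001-53483500 between Smndc1 and Dusp5 and holds no other region. The third, chr4:46595501-46637500, covers Coro2a and Tbc1d2. Loci of 3 included Trem1, Trem3 and Treml4, a cluster of myeloid receptors (chr17:48229001-48265500), the checkpoint ligands Cd274 and Pdcd1lg2 together with Ric1 (chr19:29380001-29502500), and a stretch near Plac8 (chr5:100582001-100627000). In all, these loci held 4, 16 and 6 regions. The locus upstream of Lyst held 8 and that of Coro2a and Tbc1d2 held 6. Such stretches thus also contain regions that were not chosen.

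In the sham libraries that chose them, the 430 regions held a share of the pairs in all regions of 1.63% to 2.47% at P1 (median 1.94%) and 0.627% to 1.53% at P10 (median 0.831%). The choice makes this separation. The regions nearest the threshold were the Fgr promoter, with a P1 to P10 sham ratio of 1.802, and regions at Dpys and Emilin2 just inside, and regions at Runx2, Ptpn11 and Stx11 just outside, with ratios just below 1.8. At the inner edge the CPM of P1 and P10 sham were 240.7 and 133.6 for Fgr, and at the outer edge 74.4 and 41.3 for Ptpn11.

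After infarct the share at the ages differed by day. P1 MI libraries held 1.45% to 2.34% of their pairs in the 430 regions (median 2.01%) and P10 MI libraries 0.771% to 2.05% (median 1.22%), so the groups overlapped. At day 7 they did not. The 6 P1 MI libraries then held 1.77% to 2.34% (median 2.08%) and the 6 P10 MI libraries 0.771% to 1.26% (median 0.854%). Of the P1 MI libraries, those of pool number 1 held 2.11%, 2.30% and 2.01%, and those of pool number 2 held 2.34%, 1.77% and 2.06%, so both pools lay above P10 MI. At day 3 the 3 P1 MI libraries, all of 1 pool, held 1.45%, 1.60% and 1.97%, within the 1.08% to 2.05% (median 1.45%) of the 6 P10 MI libraries. The days overlapped at both ages, with the median higher at day 7 in P1 MI and lower at day 7 in P10 MI.

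**Figure D1:**
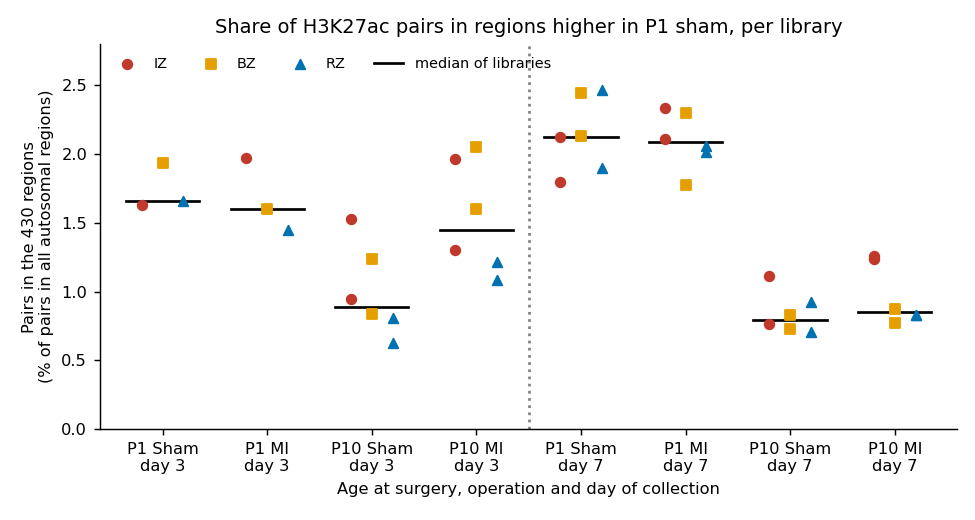
Percent of a library's pairs in autosomal regions that fell in the 430 regions (y axis) for the 8 combinations of age, operation and day (x axis); points are libraries, shaped and coloured by zone, and bars are medians. The sham groups were used to choose the regions; among MI libraries P1 and P10 overlapped at day 3 and were apart at day 7.

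The first comparison asked how far the age difference of sham hearts was present after infarct. It was fitted with limma on all 42 libraries and adjusted over the 12258 regions averaging 3 or more pairs over the libraries, a filter that 371 of the 430 regions passed. Over both days and the 3 zones, 347 of these 371 were lower in P10 MI than in P1 MI in the fitted value, with a median log2 difference of -0.67 against -0.05 over all tested regions. At an adjusted p under 0.05 (limma, Benjamini-Hochberg), 36 were lower and 0 higher, where 0.702% of all tested regions were lower and 0.367% higher. With no filter and no model, 394 of the 430 (91.6%) were lower in summed pairs, against 56.8% of all regions with pairs at both ages. The median P10 MI to P1 MI ratio was 0.629, a log2 value of -0.67 against -0.08 over all those regions. Of the 430, 100 were at least 2-fold lower, a count for which no share over all regions was computed. The 36 regions were 10 promoters, 17 intragenic and 9 intergenic regions near 33 genes. The median difference was alike in the classes, -0.60 at promoters, -0.70 in genes and -0.69 between genes. It was -0.54 in the 150 tested regions with a sham ratio under 2 and -0.73 in the 179 with a ratio of 2 to 2.5. These calls depended on the scaling. With all deposited pairs of a library as its total the median of the 371 was -0.52. That scaling moved the median of all tested regions from -0.05 to 0.11. It called 1 of the 371, where 1 of all tested regions was called lower and 3 higher. With limma-trend in place of voom 3 of the 371 were called. With the library number as a block 13 were called. Here and below, a count without the share of all tested regions called in that fit does not tell the chosen regions from the rest. Without the P1 MI day 7 pool number 1 the median was -0.66 and 17 were called lower and 0 higher, where 0.31% and 0.0245% of all tested regions were. The count was 18 without the P10 MI day 3 BZ library number 3, the one library whose removal moved it by more than 1.5 times.

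With the filter lowered to an average of 1 pair, 18751 regions were tested and all 430 were among them. Of the 430, 402 were lower in P10 MI, with a median of -0.67, and 25 were called lower and 0 higher (0.304% and 0.117% of all tested regions). At day 7 alone 87 were called lower and 0 higher (1.64% and 0.539%). From day 3 to day 7 in P10 MI 18 were lower and 0 higher (0.608% and 0.261%), and between the zones 0 were called (0.00533% higher and 0% lower).

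The difference was larger at day 7. At day 3 the median over the 371 was -0.28, against -0.06 over all tested regions, and limma called 0 of them and 0% of all tested regions, as limma-trend also called 0. There 27 of the 371 were lower and 3 higher at an unadjusted p under 0.05, against 629 and 326 of the 12258. At day 7 the median was -1.02 against -0.03, 350 of 371 were lower, and 100 were called lower and 0 higher, where 2.79% of all tested regions were lower and 1.45% higher. Those 100 regions were near 90 genes, and 34 of them were also among the 36 above. The count was 30 with all deposited pairs as the total, where 60 of all tested regions were lower and 87 higher. It was 65 without the P10 MI day 7 RZ library number 1. Without the P1 MI day 7 pool number 1 the median was -1.04 and 45 were called lower and 0 higher, where 1.63% and 0.277% of all tested regions were. In 29 of the 371 (7.82%) all 6 P10 MI day 7 libraries lay below all 6 P1 MI day 7 libraries, and in 0 above. Over all tested regions this held for 1.24% and 1.19%.

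**Figure D2:**
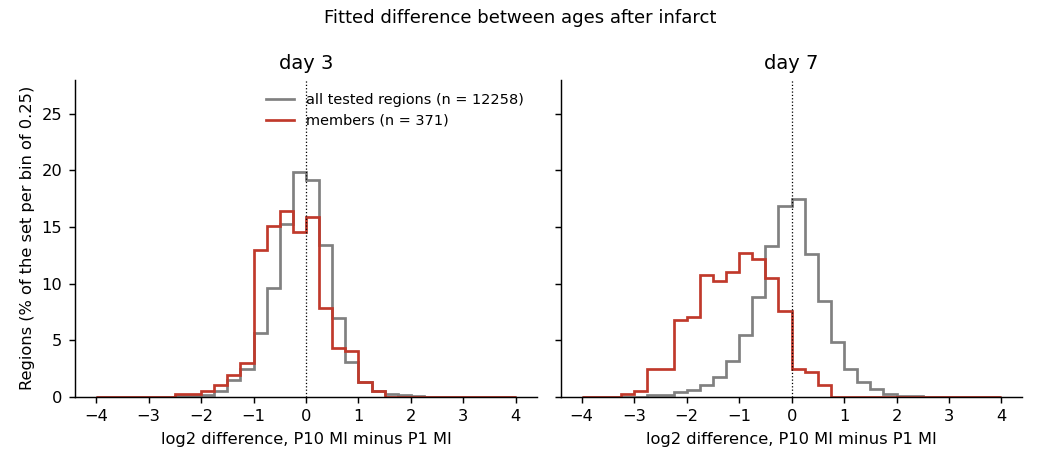
Distribution of the fitted log2 difference between P10 MI and P1 MI (x axis, bins of 0.25; y axis, percent of regions) at day 3 and day 7, for the 371 tested regions of the 430 (red) and all 12258 tested regions (grey). The median of the 371 was -0.28 at day 3 and -1.02 at day 7, and that of all tested regions -0.06 and -0.03.

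The difference between the days was tested as such. The age difference at day 7 less that at day 3 had a median of -0.77 over the 371, against 0.04 over all tested regions, and 12 were called lower and 0 higher, where 0.587% of all tested regions were lower and 0.188% higher. The day 3 side rests on the single P1 MI pool, and the count was 0 with all deposited pairs as the total, 4 with limma-trend, 5 with the filter of 1 pair, 7 with the library number as a block and 24 without the P1 MI day 7 pool number 1, where 1.29% of all tested regions were lower and 0.457% higher. It was 3 without the P1 MI day 3 BZ library, 4 without P10 MI day 3 IZ number 3 and 40 without P10 MI day 3 IZ number 2, where 1.42% of all tested regions were lower and 0.636% higher. Within P10 MI, day 7 less day 3 had a median of -0.63 against -0.01 over all tested regions, and 302 of 371 were lower. Of these 35 were called lower and 0 higher, near 30 genes, where 1.37% of all tested regions were lower and 0.832% higher. This count was 8 with all deposited pairs as the total, where 33 of all tested regions were lower and 1 higher. It was 7 with limma-trend and 16 with the library number as a block. Leaving out 1 library gave 59 without IZ number 2 of day 3, where 2.59% of all tested regions were lower and 1.44% higher, 10 without IZ number 3 and 7 without RZ number 2 of day 3, and 9 to 19 without IZ number 1 or 2, BZ number 1 or 2 or RZ number 1 of day 7. Number 2 of both days was sequenced on the same flow cells, and there the share of the 430 regions was 1.30% at day 3 and 1.24% at day 7 in IZ, 2.05% and 0.771% in BZ, and 1.21% and 0.833% in RZ. Within P1 MI the same difference had a median of 0.18 against -0.05, with 0 called and 0% called among all tested regions. Without the P1 MI day 7 pool number 1, 1 was called higher and 0 lower, where 0.0245% of all tested regions were higher and 0% lower. At an unadjusted p under 0.05, 5 of the 371 were lower and 25 higher in P1 MI, against 382 and 271 of the 12258. With all deposited pairs as the total, the P1 MI median was 0.05.

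Among promoter regions, those of F10, Ikbke and Fgr had the smallest adjusted p between the ages at day 7. At the F10 promoter (chr8:13025501-13041000), F10 encoding coagulation factor X, P1 MI libraries at day 7 read 247 to 564 CPM (median 290) and P10 MI libraries 21.8 to 107 (median 34.6). That region also overlaps F7, so its pairs cannot be assigned to F10 alone. P10 MI libraries at day 3 read 48.4 to 402 CPM (median 182), across the 126, 148 and 272 CPM of P1 MI. The groups were apart at day 7 and overlapped at day 3. The fitted log2 difference between the ages was -2.64 at day 7 (SE 0.34, adjusted p = 5.72e-08, limma) and -0.03 at day 3, and the change between the days was -2.61 (SE 0.47, adjusted p = 0.00103). All 3 calls of this change, of day 7 and of both days together (-1.34, adjusted p = 0.00107) held whichever single MI library of the comparison was left out. With all deposited pairs as the total the adjusted p was 0.105 for the change and 0.0565 for both days together.

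Ikbke, a kinase of the NF-kB and interferon pathways, behaved likewise at its promoter (chr1:131274501-131281000). Its P1 MI libraries at day 7 read 104 to 324 CPM (median 218) and its P10 MI libraries 0 to 54.8 (median 25.3), with no overlap, while P10 MI at day 3 read 48.4 to 180 (median 135). The difference between the ages was -2.85 at day 7 (SE 0.41, adjusted p = 6.85e-07) and 0.14 at day 3, and from day 3 to day 7 within P10 MI the level fell by 2.34 on the log2 scale (SE 0.41, adjusted p = 0.000191). That fall remained called in each of the 12 fits that left out 1 P10 MI library.

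Fgr, a Src-family kinase of myeloid cells whose promoter region is shown above, read 313 to 624 CPM in P1 MI at day 7 (median 480) and 81.5 to 283 in P10 MI (median 135). These groups were apart. The log2 difference was -1.44 (SE 0.24, adjusted p = 3.65e-05) at day 7 and -0.14 at day 3. In P10 MI at day 3 the range was wide, from 165 to 618 CPM, and both the highest value and the lowest came from IZ libraries.

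Fpr2, a receptor for formylated peptides that guides phagocytes, has a promoter region (chr17:17881001-17892000) that also overlaps Fpr1 and Fpr3. It read 83.1 to 149 CPM in P1 MI at day 7 (median 115) and 18.3 to 68.1 in P10 MI (median 27.4), again with no overlap. Within P10 MI it fell by 1.84 on the log2 scale from day 3 to day 7 (SE 0.37, adjusted p = 0.00153), a call lost with the library number as a block. The age difference at day 7 was -1.73 (SE 0.41, adjusted p = 0.00457), a call lost without P10 MI day 7 RZ number 1 (adjusted p = 0.0502). Over both days the difference was -0.54 at this promoter and 0.34 in a second region near it, in Fpr3, and neither passed (adjusted p = 0.406 and 0.791). At day 7 the second region had a difference of -0.27 (adjusted p = 0.857).

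Away from promoters the smallest day 7 adjusted p was that of a region in Ccdc88c, which encodes a regulator of Wnt signalling (-2.31, SE 0.32, adjusted p = 2.33e-07). Regions at Dusp5 and Tmem51 were among the 6 with the smallest p over both days. The region 45609 bp from the start of Dusp5, an ERK phosphatase, read 89.1 to 208 CPM in P1 MI at day 7 (median 168) and 18.3 to 68.1 in P10 MI (median 26.7). Inside Tmem51, which encodes a membrane protein, the values were 66.0 to 299 (median 155) and 10.9 to 48.7 (median 29.7). Neither pair of groups overlapped, and the log2 differences at day 7 were -2.39 (SE 0.40, adjusted p = 2.32e-05) and -2.30 (SE 0.44, adjusted p = 0.000269). In Tbc1d2, a GTPase-activating protein for Rab proteins, the difference was -2.70 (SE 0.50, adjusted p = 0.000164) with overlapping groups, as 1 P10 MI library reached 64.0 CPM and 1 P1 MI library was at 53.4.

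**Figure D3:**
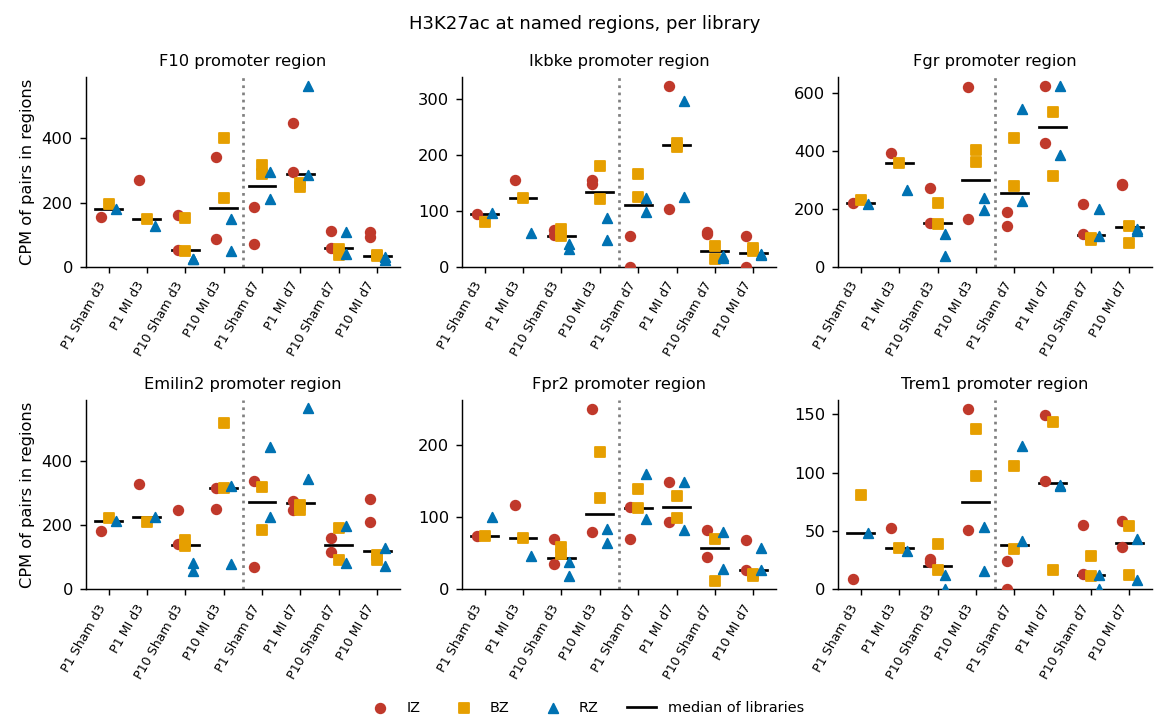
H3K27ac level in CPM of pairs in regions (y axis) at the promoter regions of F10, Ikbke, Fgr, Emilin2, Fpr2 and Trem1 for the 8 combinations of age, operation and day (x axis); points are libraries coloured by zone and bars are medians. At day 7 the P1 MI and P10 MI libraries were apart at F10, Ikbke, Fgr and Fpr2 and overlapped at Emilin2 and Trem1.

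Among the regions with the most pairs, those at Ptgir, the prostacyclin receptor, and in Galns, whose nearest start site is that of Aprt, also had day 7 groups that did not overlap, with log2 differences of -1.36 (adjusted p = 0.00164) and -1.56 (adjusted p = 0.000269). Irgc1 was apart as well (-1.11, adjusted p = 0.013), a call lost without P10 MI day 7 RZ number 1 (adjusted p = 0.0899). The intergenic region 19670 bp from Rbm38 was called lower at day 7 (-1.28, adjusted p = 0.000814, limma). There 5 P1 MI libraries lay above every P10 MI library, and P1 MI RZ number 2 read 29.7 CPM, below every P10 MI library. Without P1 MI day 7 RZ number 1, which leaves RZ number 2 alone in its zone, the difference was -0.45. The Kcnn4 promoter, also among the 12 regions with the most pairs, had a day 7 difference of -0.30 and was not called (adjusted p = 0.686). Among the 371 tested regions, the largest difference in the other direction over both days was 0.68 in an intergenic region 60488 bp from Nrf1, where P10 MI libraries at day 7 read 18.3 to 54.3 CPM and P1 MI 0 to 53.4 (adjusted p = 0.472). Over all 430, the summed pairs gave the Sh3d21 promoter, which did not pass the filter, the highest P10 MI to P1 MI ratio, 3.02, on 50 pairs over the MI libraries.

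Whether infarct raised these regions in P10 hearts cannot be read from the 430 against the P10 sham libraries that chose them, since a region chosen for a low P10 sham value tends to read higher elsewhere. The choice was therefore repeated on each day's sham libraries alone (at least 30 pairs, the same ratio) and the MI libraries were compared with the sham libraries of the other day. Day 7 sham libraries chose 1182 regions and day 3 sham libraries 552, and 112 regions were chosen on both days. In the sham libraries that had not chosen them, both sets were again lower at P10 in the median, by 0.29 on the log2 scale at day 3 (0 of 1027 tested and 0% of all tested regions called; 121 lower and 8 higher at an unadjusted p under 0.05, against 619 and 283 of the 12258) and by 0.44 at day 7 (33 of 434 tested called lower and 0 higher, where 1.99% and 1.13% of all tested regions were).

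At day 3 the regions chosen on day 7 were higher in P10 MI than in P10 sham. The 6 P10 MI libraries held 3.56% to 6.17% of their pairs in them (median 4.70%) and the 6 P10 sham libraries 2.83% to 5.19% (median 3.46%), with overlap. MI and sham libraries of the same number shared flow cells, and the share was higher in MI in 5 of 6 such pairs of the same zone. The exception was IZ number 2, at 4.31% in MI and 5.19% in sham. The median log2 difference was 0.27 against -0.04 over all tested regions, and 700 of 1027 tested were higher. Of these 14 were called higher and 0 lower, where 0.31% of all tested regions were called higher and 0.00816% lower. In P1 hearts, MI less sham at day 3 had a median of 0.07 in the same regions, with 0 called of 1027 and 0% of all tested regions (4 lower and 11 higher at an unadjusted p under 0.05, against 69 and 82 of the 12258). Whether the P10 and P1 differences themselves differ was not tested. The P10 MI libraries also stood near the 4.04%, 4.53% and 5.36% of the 3 P1 MI libraries, and the age difference after infarct was -0.06 in the median with 0 called, the same as the -0.06 and 0 called over all tested regions.

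The regions chosen on day 3 were read at day 7 in the same way. P10 MI libraries held 1.15% to 1.61% (median 1.39%), P10 sham libraries 1.13% to 1.40% (median 1.26%) and P1 MI libraries 1.52% to 1.89% (median 1.75%). Between P10 libraries of the same number and zone, which again shared flow cells, the share was higher in MI in 5 of 6 pairs, the exception being BZ number 1, at 1.38% in MI and 1.40% in sham. The median log2 difference between P10 MI and P10 sham was 0.11, with 0 of 434 called and 0% of all tested regions (8 lower and 12 higher at an unadjusted p under 0.05, against 188 and 178 of the 12258), and it was -0.05 with all deposited pairs as the total. P1 MI less P1 sham was 0.01 against -0.05 over all tested regions, with 0 called in both (11 lower and 13 higher at an unadjusted p under 0.05, against 359 and 220 of the 12258). The age difference after infarct was -0.35 in the median, with 31 of 434 called lower and 1 higher, where 2.79% of all tested regions were lower and 1.45% higher.

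**Figure D4:**
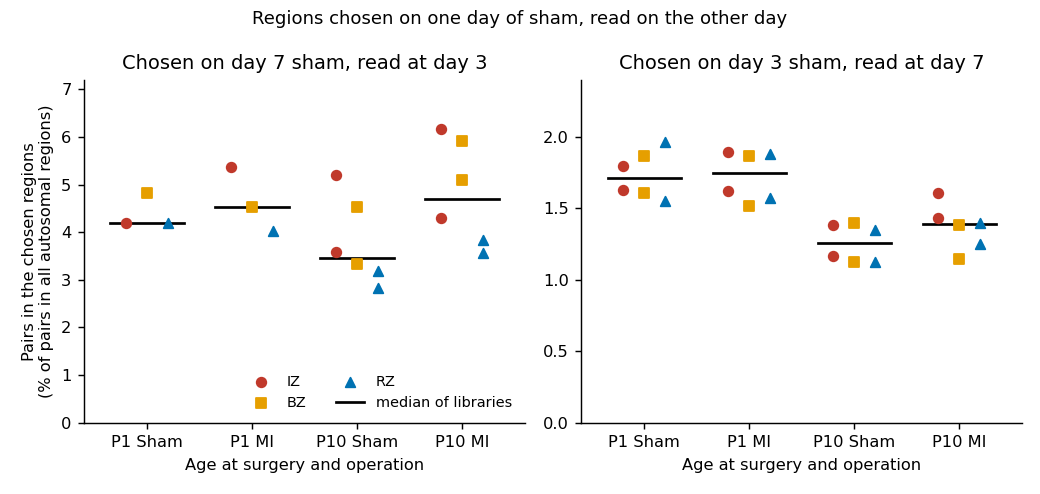
Percent of a library's pairs in regions chosen as higher in P1 sham on the other day (y axis), by age and operation (x axis); left, regions chosen on day 7 and read at day 3, right, the reverse. Points are libraries coloured by zone and bars are medians; P10 MI had a median of 4.70% against 3.46% in P10 sham at day 3, and 1.39% against 1.26% at day 7.

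Of the 14 regions called higher in P10 MI at day 3, 10 were among the 430. The choice of the 430 used the P10 sham day 3 libraries that this comparison reads, so the overlap is a description only. Of the 14, 12 were also called lower from day 3 to day 7 within P10 MI, a comparison that shares the P10 MI day 3 libraries. The 14 included the promoter regions of Emilin2, an extracellular matrix glycoprotein, Fgr, F10 and Fpr2, and a region in St3gal5, a ganglioside synthase. At Emilin2, shown above, P10 MI libraries at day 3 read 80.7 to 518 CPM (median 315) and P10 sham 56.0 to 249 (median 137), a difference of 1.25 (SE 0.24, adjusted p = 0.00259). At the promoter of Trem1, a receptor that amplifies inflammatory signals, they read 16.1 to 155 (median 75.05) and 0 to 39.1 (median 20.0), a difference of 2.24 (SE 0.47, adjusted p = 0.0109). Both pairs of groups overlapped. With the filter of 1 pair 7 of 1182 were called higher and 0 lower (0.096% and 0.00533% of all tested regions). The count of 14 was 0 with all deposited pairs as the total and with limma-trend, 44 with the library number as a block within age and day, and 0 without P10 MI day 3 RZ number 2 or P10 sham day 3 RZ number 2. It was 2 without P10 MI day 3 IZ number 3, 4 without P10 MI day 3 BZ number 2, 5 without P10 sham day 3 IZ number 3 or BZ number 3, 28 without P10 MI day 3 BZ number 3 and 63 without P10 MI day 3 IZ number 2. Over all tested regions 0.506% were called higher in the fit that gave 28, 1.38% in the fit that gave 63 and 1.02% in the fit that gave 44.

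Within P10 MI the share of the 430 regions was higher in IZ than in RZ in 4 of 4 pools. The values were 1.30% in IZ and 1.21% in RZ in pool number 2 of day 3, 1.96% and 1.08% in number 3 of day 3, 1.26% and 0.830% in number 1 of day 7, and 1.24% and 0.833% in number 2 of day 7. IZ was also above RZ in 4 of 4 P10 sham pools, by 0.0533 to 0.899 percentage points, and in 3 of 3 P1 MI pools, but in 1 of 3 P1 sham pools. The sham pools had part in choosing the regions. In the fit, IZ less RZ in P10 MI had a median of 0.49 over the 371 against 0.00158 over all tested regions, and 284 were higher. None was called (0 of 371, where 0.00816% of all tested regions were higher and 0% lower), and at an unadjusted p under 0.05 62 were higher and 0 lower, against 599 and 506 of the 12258. The median was 0.35 without P10 MI day 3 IZ number 3 and 0.65 without P10 MI day 3 IZ number 2, and without the latter 14 regions were called higher and 0 lower, where 0.514% of all tested regions were higher and 0.212% lower.

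**Figure D5:**
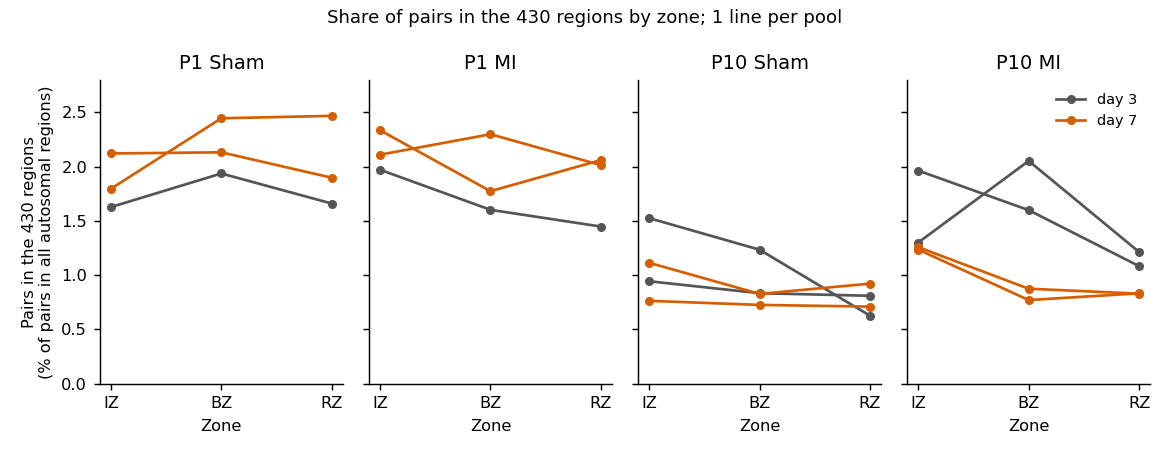
Percent of pairs in the 430 regions (y axis) in IZ, BZ and RZ (x axis) for each of the 14 pools, by age and operation; grey lines are day 3 and orange lines day 7. IZ was above RZ in 4 of 4 P10 MI pools, 4 of 4 P10 sham pools, 3 of 3 P1 MI pools and 1 of 3 P1 sham pools.

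The 3 regions with the smallest p between the zones lay at Id2, P2rx1 and Gse1. The region 184361 bp from the start of Id2, an inhibitor of basic helix-loop-helix factors, read 39.8, 45.1, 45.7 and 48.6 CPM in the 4 IZ libraries and 11.4, 32.3, 2.1 and 0 in the 4 RZ libraries, which did not overlap (2.60, adjusted p = 0.0552). At the P2rx1 promoter, which encodes an ATP-gated channel, IZ read 34.1, 64.4, 27.4 and 58.4 and RZ 3.79, 16.1, 2.10 and 7.25 (2.62, adjusted p = 0.0813). In Gse1 the values were 28.4, 12.9, 36.6 and 29.2 against 0, 0, 6.31 and 0 (2.68, adjusted p = 0.0813). All 3 pairs of groups were apart and none passed the threshold. The regions at Id2, P2rx1 and Gse1 held 76, 108 and 81 read pairs over all MI libraries, so the RZ values rest on few read pairs. They were picked for the smallest p between these zones, which favours groups that are apart. No share of all tested regions with IZ and RZ apart was computed, so the separation is a description only.

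Genes of the monocyte and macrophage lists were then read, each counted with 50 kb of sequence before it and 30 kb after it. Overlaps are counted over regions with at least 60 sham pairs, of which 430 of 12893 were chosen as higher in P1 sham and 373 the opposite way, at least 1.8 times higher in P10 sham. Of 44 such regions at Ly6c-low monocyte genes, 6 were among the 430, at Ace, Adgre4 and Pou2f2 and 3 within the span of Treml4. Those 3 were the promoter regions of Trem1, Trem3 and Treml4, so Trem1 and Trem3 were counted only by their distance from Treml4. The nearest start site of the Pou2f2 region was that of Zfp574. Of 20 at Ly6c-high monocyte genes, 4 were, at Ccr2 and Plac8. Of 39 at resident macrophage genes 0 were among the 430, a count near the share over all such regions, and 10 were among the 373. These counts follow from the sham values and are a description. Over the tested regions of these lists, limma called 2 of 44 Ly6c-low and 2 of 21 Ly6c-high regions lower in P10 MI than in P1 MI, and 3 of 37 resident macrophage regions higher, where 0.702% of all tested regions were lower and 0.367% higher. Of the regions with at least 60 sham pairs, the cell cycle list had 2 of 21 among the 430 and the AP-1 list 2 of 32. These were counted by their distance from Top2a, Mcm5, Fosb and Batf, and none overlapped the listed gene. The cell cycle ones lay in Tns4 and Tom1, and the nearest start site of the Fosb one was that of Ercc1. Counts of 2 are too few to set against the 430 of 12893 over all such regions. The count was 0 in the lists of Arg1 macrophages (9 regions), S100a9 monocytes (6), MHCII (11) and interferon response (14). It was also 0 in the fetal-type (6), lymphoid (9), erythroid (3) and non-leukocyte lists (3). In lists of this size a count of 0 is near the share over all such regions.

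The Ace region (chr11:105986501-105991000, nearest start site that of Ace3) had the largest difference of the 36. Angiotensin-converting enzyme is a marker of Ly6c-low monocytes. The region read 0 to 174 CPM in P1 MI at day 7 (median 78.2), 0 to 54.8 in P10 MI at day 7 (median 7.83) and 0 to 12.1 in P10 MI at day 3 (median 3.79), against 11.3, 40.8 and 59.7 in P1 MI at day 3. These values rest on 22 pairs in P10 MI and 64 in P1 MI. The groups overlapped, and the log2 difference over both days was -2.41 (SE 0.44, adjusted p = 0.00143). It was the region still called with all deposited pairs as the total, and at day 7 alone its call was lost without P1 MI day 7 RZ number 1 (adjusted p = 0.0524). The call over both days was lost with the library number as a block.

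At the Treml4 promoter, a receptor of Ly6c-low monocytes, P1 MI at day 7 read 47.5 to 178 CPM (median 79.6) and P10 MI 7.25 to 48.6 (median 24.6), overlapping by 1 library (-1.61, adjusted p = 0.024). That call was lost without P1 MI day 7 BZ number 2 or RZ number 2, or P10 MI day 7 IZ number 1 or RZ number 1, the highest adjusted p being 0.0687. The 2 regions near Plac8 had day 7 differences of -1.78 (adjusted p = 0.00475) and -1.56 (adjusted p = 0.00464), and the one shown above had groups that did not overlap, 66.0 to 208 CPM against 21.8 to 58.4. The lowest P1 MI value there came from BZ number 2, a library of the shallowest MI pool. The call of the region shown was lost without P1 MI day 7 BZ number 1 (adjusted p = 0.0666). The 2 Ccr2 regions, at the chemokine receptor that brings classical monocytes to injured tissue, had differences of -0.73 and -0.80 and were not called (adjusted p = 0.549 and 0.502), nor were those at Adgre4 (-0.62) and Pou2f2 (-1.39). At day 7 both regions thus passed the test at Plac8 and neither did at Ccr2. With all deposited pairs of a library as its total, the day 7 calls of F10, Ikbke, Fgr, Ccdc88c, Dusp5, Tmem51, Tbc1d2, Ace and the Galns region held, and those of Fpr2, Ptgir, Irgc1, Rbm38, Treml4 and both Plac8 regions did not (adjusted p of 0.0679 to 0.218). Without the P1 MI day 7 pool number 1, which leaves 3 P1 MI libraries at day 7, those of F10, Ikbke, Fgr, Ccdc88c, Dusp5, Tbc1d2, Fpr2, Treml4, the Galns region and the other Plac8 region held. Those of Tmem51, Ptgir, Irgc1, Rbm38, Ace and the Plac8 region shown did not (adjusted p of 0.0521 to 0.819).

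The marker lists were also read in the same libraries. The Ly6c-low and Ly6c-high lists hold 6 and 4 of the 430 regions and the resident macrophage list 10 of the 373, so their levels are not independent of the choice. Summed over its 73 regions, the resident macrophage list read 2012 to 2379 CPM in P1 MI at day 7 and 3409 to 4966 in P10 MI at day 7, with 1700 to 4371 in P10 MI at day 3 and 1972 to 3345 in P1 MI at day 3. By zone in P10 MI it read 1700 to 3783 in IZ and 4057 to 4966 in RZ. The Ly6c-low list read 4971 to 6650 in P1 MI and 4416 to 5676 in P10 MI, and the Ly6c-high list 1484 to 2529 in P10 MI at day 3 and 1132 to 1515 at day 7. The Arg1 list read 360 to 741 and 210 to 409 on those days. Unlike the share of the 430 regions, the Ly6c-low and MHCII lists had a higher median at day 7 than at day 3 in P10 MI. The Ly6c-low list read 4634 to 5494 (median 4954) at day 3 and 4416 to 5676 (median 5125) at day 7, and the MHCII list 455 to 774 and 809 to 976. The S100a9 monocyte list read 209 to 741 and 261 to 389. Summed over its 9 regions, the non-leukocyte list read 87.9 to 214 CPM over the MI libraries. Lists differ in their number of regions, so their sums cannot be compared with each other as levels. The part of cell composition in the differences was not tested.

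The 373 regions higher in P10 sham gave values of the opposite sign after infarct. Their median difference between P10 MI and P1 MI was 0.39 (309 tested), with 4 called higher and 0 lower, where 0.367% of all tested regions were higher and 0.702% lower. At day 7 it was 0.64, with 33 called higher and 0 lower, where 1.45% of all tested regions were higher and 2.79% lower. IZ less RZ in P10 MI had a median of -0.34. The 4012 other tested regions in the middle range of MI pairs of the 430 (69 to 137 pairs) had a median age difference of -0.13 over both days, -0.16 at day 3 and -0.07 at day 7, against -0.67, -0.28 and -1.02 in the 371.

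Read names showed which flow cells a library was sequenced on. P1 MI day 3 and P10 MI day 7 number 1 were on the same 4 flow cells, and between these 3 and 3 libraries, which differ in day as well as in age, 335 of the 371 were lower in P10 MI with a median of -0.79, against -0.07 over all tested regions. Of the MI libraries of a matched day, 1 P1 library shared a flow cell with P10, namely IZ number 1 of day 7, which had 1 of its 6 flow cells in common with P10 MI day 7 number 1. It held 2.11% of its pairs in the 430 regions, and those P10 libraries 1.26%, 0.875% and 0.830%. Otherwise age and flow cell cannot be told apart within a day. At both ages MI libraries shared flow cells with sham libraries of their own age and day, which had part in choosing the regions.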

How the data were processed

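Libraries of H3K27ac CoBATCH were analysed for 42 of the 48 samples, and 6 were not analysed here. The deposited files list aligned reads with their positions on GRCm38 (mm10) and a score for each read, 21 to 44, that no header names and that was taken to be the mapping quality. The authors split cell barcodes, trimmed with Cutadapt, aligned with Bowtie2, filtered on mapping quality (Samtools) and dropped duplicates (Picard). The submitters' processing notes also list MACS2 2.2.7.1 and deepTools, whose output was not used here.

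Mates were joined by read name, lines repeated in 18 libraries (9.67% to 32.2% of their lines) were dropped, and 17959096 pairs were counted from 38097100 lines, each at its midpoint. Regions and the 430 members were built as described above, giving each of the 24 groups equal weight. The members, gene lists, motifs and comparisons were chosen with earlier results of these data known, so no test here is independent of that choice. Promoters were called from GENCODE start sites.

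Differences were fitted on counts of pairs with limma 3.58.1 (voom, TMM factors of 0.969 to 1.03, R 4.3.3), with a mean for each of the 24 groups and the 14 pools as a random block (correlation 0.0531). Regions averaging 3 or more pairs over the libraries were tested (12258), p-values were two-sided and adjusted by Benjamini-Hochberg over all of them, and the threshold was 0.05. Files were read with python 3.11.15. Hearts were pooled, libraries of a pool may share animals, and no source names the separate animals, so p-values measure the spread between these libraries, part of which may be technical. Pairs without molecular identifiers limit the precision of the shallow libraries.

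Regions described singly were the 12 with the most MI pairs, up to 6 per direction with the smallest p between the ages, up to 3 per direction between zones and between days, those at listed genes and those next to the threshold. Regions named as part of a locus, for a call against P10 sham, for a change between the days, for the smallest day 7 p or for the highest summed ratio were named after their values were seen. Alternatives were other scalings, filters, thresholds and models, an offset by GC content, duplicates counted once, the library number as a block, and each library left out. Summed pairs and the fits without the shallowest MI pool or without the P1 MI day 7 pool number 1 were chosen after seeing the data. Some regions that met these rules are not reported here.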

Additional observations from a re-analysis of the deposited data

Results flagged for a closer look

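In 12 of the 371 tested regions the difference between P10 MI and P1 MI differed between day 7 and day 3 by the test of that change itself (limma, adjusted p 0.00103 to 0.0481). All 12 changes were negative, and the day 3 side rests on the 3 P1 MI libraries of 1 pool. The log2 change was -2.61 at the F10 promoter, -2.99 at the Ikbke promoter, -2.46 in Ccdc88c, -3.96 near Lyst and -2.36 at the Fpr2 promoter. It was -3.42 near Il21r, a cytokine receptor, -3.15 at Slfn1 and -1.97 in Agpat4. At the Fgr promoter it was -1.29, at the Trem1 promoter -2.55, near Tmigd1 -3.20 and at the promoter of Cd244a, a receptor of the SLAM family, -1.84. In the Lyst region the age difference was 1.25 at day 3 and -2.71 at day 7. Over all tested regions of the 430, the count of changes called was 0 with all deposited pairs of a library as its total. It was 4 with limma-trend, 5 with a filter of 1 pair, 7 with the library number as a block and 20 with a GC offset. It was 24 without the P1 MI day 7 pool number 1, 29 with MI libraries alone and 31 with no random pool block. Regions called in these fits need not be among the 12. Of the 21 fits that each left out 1 MI library, the call was lost in 17 at Tmigd1, 14 at Agpat4, 13 at Fgr and at Cd244a, 11 at Trem1, 10 at Slfn1, 7 near Il21r, 6 at Fpr2 and 1 near Lyst, and in 0 at F10, Ikbke and Ccdc88c. No library stood far from the others in its group by its share of the 430 regions, over the 6 combinations of age, operation and day that have 6 libraries each. P1 MI and P1 sham at day 3, with 3 libraries each, were not examined.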

How the results depend on the processing

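The difference between P10 MI and P1 MI kept its direction in the median of the tested regions under every alternative run. Its count of called regions, 36, was 1 with all deposited pairs as the library size, 3 with limma-trend, 5 of 42 tested with a sham ratio of at least 2.5 and 59 of 972 with 1.5 (11.9% and 6.07%, against 9.70%), and 11 of 283 with windows at 6 times the mean. It was 0 at day 3 alone (median -0.28), 100 at day 7 alone (median -1.02), 18 to 52 leaving out 1 library (median -0.79 to -0.63; 18 without P10 MI day 3 BZ number 3), 17 without the P1 MI day 7 pool number 1 (median -0.66) and 13 with the library number as a replicate block (median -0.64). Of the 13 regions described singly and called in it, the direction over both days was not reversed in any of 29 alternatives. The count of 35 from day 3 to day 7 in P10 MI was 8 with all deposited pairs, 18 with a filter of at least 1 pair, 7 with limma-trend, 2 of 42 and 74 of 972 with ratios of 2.5 and 1.5, 7 to 59 leaving out 1 library (median -0.74 to -0.55) and 16 with the replicate block (median -0.73). The count of 14 in P10 MI against P10 sham at day 3 was 0 with all deposited pairs and with limma-trend, 7 with at least 1 pair, 36 with no random pool block, 31 with a GC offset, 8 of 358 with a ratio of 2.5, 0 to 63 leaving out 1 library (median 0.18 to 0.38) and 44 with a replicate block within age and day. Its median was 0.60 in regions chosen on all sham libraries, which share the P10 sham libraries with the comparison. The zone count of 0 was 1 with a GC offset, 1 of 972 with a ratio of 1.5 and 0 to 14 leaving out 1 library (median 0.35 to 0.65; 14 without P10 MI day 3 IZ number 2). The 3 other comparisons of MI with sham had 0 called in each alternative run. Their medians ran from 0.04 to 0.18 for P10 at day 7, -0.07 to 0.16 for P1 at day 3 and -0.19 to 0.09 for P1 at day 7 leaving out 1 library. The cause of these moves was not tested. A count printed without the share of all tested regions called in that fit does not tell the chosen regions from the rest.

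The deviations of same-numbered libraries correlated by -0.112 to 0.0842, so the number did not pair samples by that measure, although P10 libraries of the same day and number shared flow cells. P1 at day 3 has 1 number and allows no block. With all deposited pairs as the library size the called regions over all tested were 1 lower and 3 higher in P10 MI than in P1 MI, against 86 and 45, and 60 and 87 at day 7, against 342 and 178. From day 3 to day 7 in P10 MI they were 33 and 1, against 168 and 102. That scaling moved the median of all tested regions from -0.03 to 0.17 at day 7 and from 0.00158 to -0.16 between the zones. A region with few pairs, such as that at Ace, carries a counting error that the shallow libraries cannot reduce.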
